A study of Sus scrofa with 4 samples.

Results

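The solute carriers (SLC) were the 260 array probes whose platform gene symbol begins with SLC and a family number, which stand for 216 genes in 38 families. They were drawn from 13146 probes with a symbol, for 10024 genes, on an array of 43794 EMPV1 probes. EMPV1 is a porcine oligonucleotide design. The fatty acid transporters of family SLC27 and the carnitine carrier SLC25A20 were left out. A few symbols match this rule without naming a carrier: SLC9A3R1 and SLC9A3R2 are scaffold proteins that bind transporters, and SLC4A1AP and SLC7A6OS are named only after a transporter. They were kept because the choice went by symbol.

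Solute carriers are membrane proteins that move sugars, amino acids, nucleosides, metals, ions, vitamins and metabolic acids across the plasma membrane or across the membranes of mitochondria, Golgi and lysosomes. Most are named by family, and family members usually share a structure and often a type of substrate. The preimplantation embryo takes up pyruvate, glucose and amino acids through them, and the trophectoderm, its outer epithelium, moves sodium and other ions across itself to form the fluid-filled blastocoel. Carriers of family SLC25 link the mitochondrial matrix to the cytosol by exchanging phosphate, adenine nucleotides, citrate and amino acids, and so lie between fatty acid oxidation and the rest of the cell.

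The study compared pig (Sus scrofa) blastocysts grown from oocytes that had met high NEFA, with blastocysts from control oocytes. NEFA are non-esterified fatty acids, released into blood when fat stores are broken down. Pools of 10 blastocysts were collected on days 7 and 8, and each of 4 arrays set a high NEFA pool against a control pool. The dye Cy3 marked the high NEFA pool on replicates 1 and 2 and the control pool on replicates 3 and 4, with Cy5 on the opposite pool. The title also names a co-culture on a layer of GCs, which the labels do not spell out, and it is not stated which pools had it. The labels call the arrays biological replicates, but nothing says that the pools came from separate sows, so the spread behind every p-value is that of these pools and may be technical.

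The kind of material hybridised is not settled by the labels, which name total RNA and expression profiling but whose protocols describe genomic DNA cut with methylation-sensitive enzymes. If DNA was labelled, the ratios of the transporters given here would not be transcript levels. Above background means, here, an intensity more than 2 SD over the mean negative control spot of the same dye and array. By that measure 50% to 58.6% of all probes were above background in the high NEFA channel and 49.0% to 60.3% in the control channel, with the higher share in Cy3 on every array. Of 11 listed trophectoderm markers, 8 were on the array and 7 of these genes had a probe above background in all 8 channels (4 arrays with 2 dyes each); for the inner cell mass these were 5 of 8 and 1. Summed intensities are over the brightest tested probe of each tested gene. For the trophectoderm markers the sum was 60228 to 78165 in high NEFA pools and 53369 to 77297 in control pools. Of their 8 tested genes 6 had a ratio above 0, with a median log2 ratio of 0.20. In limma 4 had an unadjusted p under 0.05, met by 6.41% of all tested probes, and 0 after adjustment. DAB2 and TEAD4 count among the 6 by their brighter probes at 0.28 and 0.12, while their other tested probes had -0.12 and -0.14. TFAP2C had 0.37 and 0.17 by its 2 tested probes. DLX3, the largest at 0.57, was above background in 4 of 8 channels and had 0.09 from mean instead of median pixel intensities. For the inner cell mass the sums were 1048 to 1242 in high NEFA pools and 916 to 1190 in control pools, with 2 of 4 tested genes above 0, a median of 0.07 and 2 at that unadjusted p (SOX15 at -0.53 and UTF1 at 0.36). Granulosa cell markers had 4 of 10 genes on the array, 1 of them (AMH) above background in all 8 channels. Their sums, over the 2 tested genes AMH and LHCGR, were 998 to 1956 in high NEFA pools and 986 to 2007 in control pools. Oocyte markers had 10 of 10 genes on the array and 4 (GDF9, MOS, ZP2 and ZP4) above background in all 8 channels, with sums of 1930 to 2426 in high NEFA pools and 2145 to 2903 in control pools, and BMP15 was above background in no channel. Of the 7 tested oocyte genes 6 had a ratio below 0, with a median of -0.20 and 1 at that unadjusted p (GDF9 at -0.33). NPM2 counts among the 6 by its brighter tested probe at -0.15, while its other tested probe had 0.43. ZP3, also among them, lay at -0.004. Of the 2 tested granulosa genes 1 lay on each side of 0. The part of these lists in any transporter ratio was not tested.

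Most solute carriers could be measured, though few gave a strong signal. All 8 channels were above background for 76 of the 260 probes (29.2%), compared with 31.7% of all probes and 36.3% of probes with a symbol. The condition for being tested, a signal above background in at least 4 of 8 channels, was met by 162 probes (62.3%), against 56% of all probes and 59.8% of probes with a symbol. The others comprised 63 probes above background in 1 to 3 channels (24.2%, against 26.2% of all probes) and 35 in none (13.5%, against 17.8%). In terms of genes, 144 of 216 had a tested probe and 72 had none. A probe could pass through 1 group of pools or 1 dye alone. SLC35F3 passed with 4 high NEFA and 0 control pools, SLC24A5 with 4 and 1 and SLC16A12 with 3 and 1. By dye, 13 SLC probes were above background in all 4 Cy3 channels and in 0 Cy5 channels, and 0 showed the reverse. Over all probes the share above background was also higher in Cy3 on every array, and the matching count is not given here. Among the brightest 10% of probes on the array lay 17 of the 260 probes (6.54%), against 10% of all probes by construction and 11.7% of probes with a symbol.

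The classes of transporter differed in how many of their probes were seen. Among nucleoside transporters, 4 of 8 probes were above background in all 8 channels. The sugar transporters had 8 of 21 such probes, the mitochondrial carriers 15 of 41 and the nucleotide sugar and Golgi carriers 9 of 26. Classes went by family number and not by substrate, so not all of the 8 sugar class probes stand for sugar carriers. Examples are the vitamin carrier SLC5A6 and the melanosome transporter SLC45A2. At the low end, acid-base and ion exchangers and cotransporters had 6 of 33. These 6 include the probes of SLC9A3R1 and SLC4A1AP, which do not name a carrier. Organic ion, bile acid and vitamin transporters had 4 of 20, and metal ion transporters 5 of 23. Amino acid transporters, the largest class with 47 probes, had 13 in all 8 channels and 8 in none. These counts depend on how well each probe hybridises and do not rank the classes by expression.

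**Figure D1:**
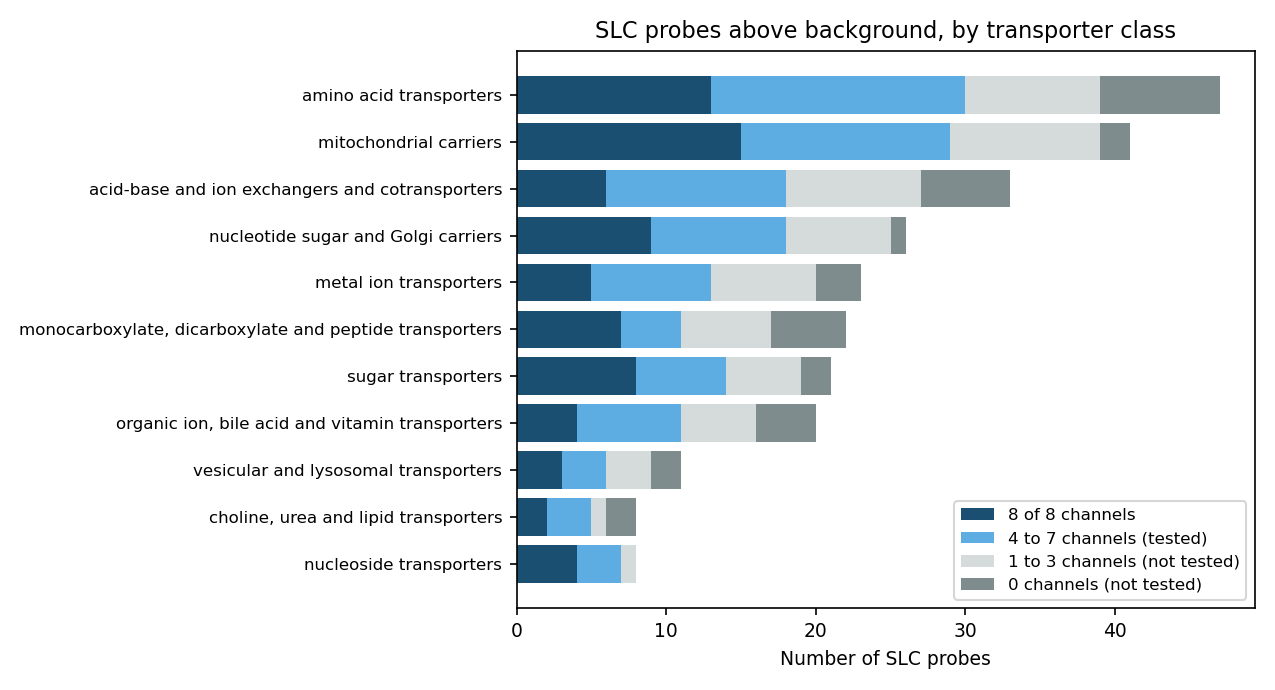
Number of SLC probes (horizontal axis) in each transporter class, split by the number of the 8 channels in which the probe was above background. Mitochondrial carriers have 2 of 41 probes above background in no channel, and amino acid transporters 8 of 47.

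Several transporters with a known place in the embryo or in metabolism gave too little signal to be tested. Of 58 transporters listed for such a role, 31 were on the array and 22 had a tested probe. The insulin-responsive glucose transporter SLC2A4 was detected in 2 high NEFA pools and 1 control pool, in 3 Cy3 and 0 Cy5 channels. The related sugar transporter SLC2A12 was seen in 0 high NEFA pools and 1 control pool, and SLC2A10 in no pool. Among cationic amino acid carriers, SLC7A1 was seen in 2 high NEFA pools and 1 control pool and SLC7A2 in none. The sodium-potassium-chloride cotransporter SLC12A2 and the peptide transporter SLC15A2 were not above background in any channel. The monocarboxylate transporter SLC16A7, which carries pyruvate and lactate, was seen in at most 1 high NEFA and 1 control pool by either of its probes, and the zinc and manganese importer SLC39A8 in 1 high NEFA and 2 control pools. These transporters have no ratio here, and a low signal on 1 probe does not show that a transporter is absent.

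The probes of highest intensity were led by a mitochondrial carrier, a scaffold protein and a nucleoside transporter. Intensities below are normalised log2 values, and those of different probes are not compared as levels, since probes hybridise unequally. SLC25A3, the mitochondrial phosphate carrier that supplies ATP synthesis, read 15.63, 15.71, 16.02 and 16.01 in high NEFA pools 1 to 4, against 15.95, 15.91, 15.88 and 15.61 in control pools. The high NEFA pools were lower on the first pair of arrays and higher on the other pair, and the groups overlapped. SLC9A3R1, a scaffold that tethers the sodium-proton exchanger SLC9A3 and other membrane proteins at the apical side of epithelia, read 15.80, 15.73, 15.76 and 15.74 in high NEFA pools, against 15.69, 15.82, 15.72 and 15.40 in control pools. SLC28A3, a sodium-driven carrier of purine and pyrimidine nucleosides, read 14.87, 15.25, 15.30 and 15.65 in high NEFA pools, against 14.98, 15.40, 14.88 and 15.39 in control pools. In both genes the groups overlapped, and the control pool of replicate 4 was the lowest SLC9A3R1 reading.

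Other bright probes belonged to carriers of amino acids, sugars and adenine nucleotides. SLC7A7, the light chain that exchanges cationic for neutral amino acids in a pair with SLC3A2, read 12.46, 13.67, 13.29 and 13.65 in high NEFA pools, against 12.99, 13.02, 13.43 and 13.54 in control pools. SLC2A8, a glucose transporter described in mouse blastocysts, read 11.96, 12.86, 12.99 and 13.00 in high NEFA pools, against 12.50, 12.81, 12.89 and 13.14 in control pools. In both, high NEFA pool 1 was the lowest of the 8 readings, and the groups overlapped. SLC25A5, one of the carriers that exchange ADP for ATP across the inner mitochondrial membrane, read 13.13, 13.58, 13.92 and 13.20 in high NEFA pools, against 13.31, 12.82, 14.05 and 14.05 in control pools. The 15 brightest SLC probes stood for 12 genes, and all 15 were above background in every channel.

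**Figure D2:**
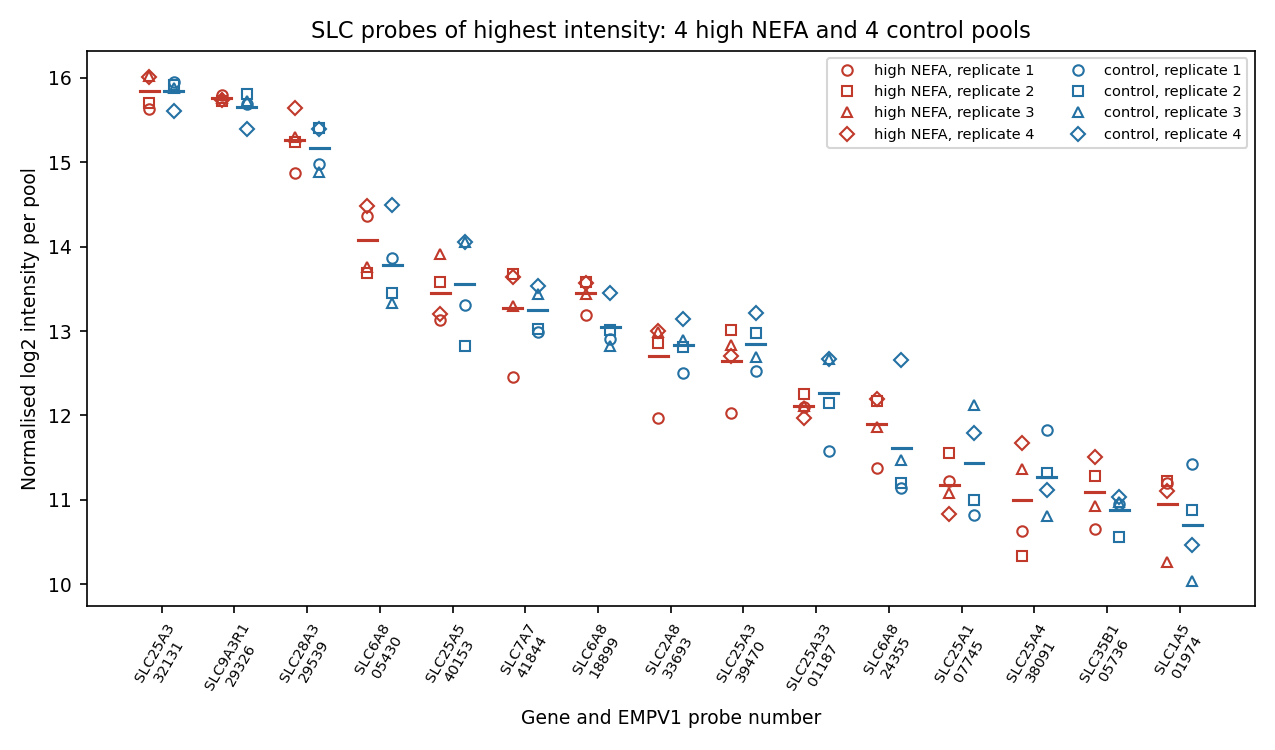
Normalised log2 intensity (vertical axis) of the 15 SLC probes of highest mean intensity, with 4 high NEFA pools (red) left of 4 control pools (blue); bars are group means and symbols mark replicates. The pools of every probe overlap between the groups, also in SLC6A8, whose 3 bright probes have their high NEFA mean above the control mean.

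No solute carrier passed the test between high NEFA and control pools. In the limma fit, 0 of 162 tested SLC probes had a Benjamini-Hochberg adjusted p under 0.05, against 0 of 24524 probes (0%). At an unadjusted p under 0.05 there were 8 SLC probes (4.94%), against 6.41% of all tested probes. Of these, 5 were higher in high NEFA pools, against 3.17% of all probes, and 3 were lower, against 3.24%. None of the 8 reached a 1.5-fold difference together with that p, a combination met by 0.359% of all probes. The share of SLC probes at a low unadjusted p thus lay near the background.

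The SLC genes as a list were centred on 0. Taking the brightest tested probe of each gene, the median log2 ratio of high NEFA over control was -0.01 over 144 genes, with 69 above 0 and 75 below and a range of -0.46 to 0.48. Counted by probe, 80 of 162 SLC probes (49.4%) had a ratio above 0, against 48.2% of all tested probes. Over all 24524 tested probes it was also -0.01. The median on each array, again high NEFA over control, was -0.01, -0.01, 0.04 and 0.11 on replicates 1 to 4. By class, the median ran from -0.10 for choline, urea and lipid transporters (5 genes) to 0.12 for nucleoside transporters (6 genes), and every class held genes on both sides of 0. A pool mixes cell types, so fewer cells of a type and less RNA per cell cannot be told apart in any of these ratios. The median 95% interval reached 0.30 to either side of the estimate on the log2 scale, and a p that misses the threshold does not show that the pools did not differ.

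**Figure D3:**
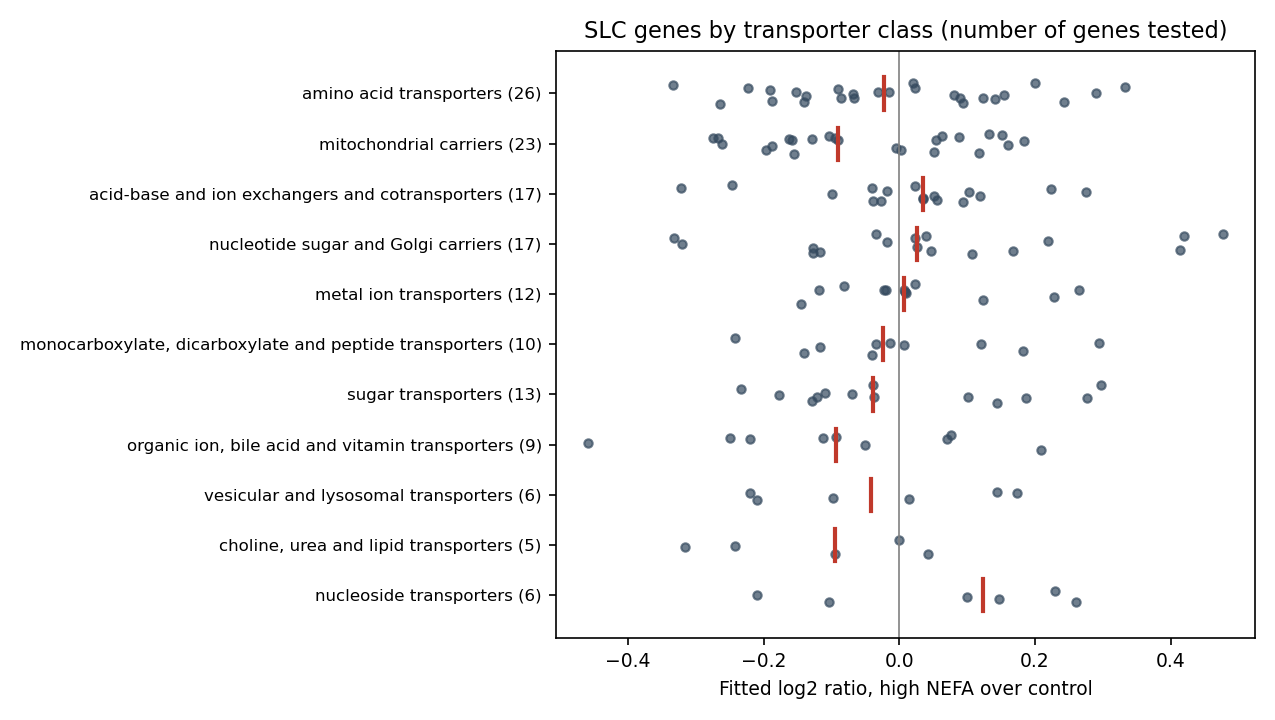
Fitted log2 ratio of high NEFA over control (horizontal axis) for the 144 tested SLC genes, 1 point per gene, by transporter class; red bars are class medians. All class medians lie between -0.10 and 0.12, and single genes between -0.46 and 0.48.

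The dye effect was larger than the exposure ratio for most solute carriers. Fitted per probe, the median size of the dye effect was 0.20 on the log2 scale, that of the exposure ratio 0.12, and the dye effect was the larger in 109 of 162 probes (67.3%, against 72.7% of all tested probes). With ratios turned to high NEFA over control by the labelled dyes, replicates 1 and 2 correlated at 0.50 and replicates 3 and 4 at 0.62 over the 162 SLC probes, while pairs of opposite orientation correlated at -0.44 to -0.54. The correlations are across probes that share arrays and dyes, and are a description. Without that turn the negative correlations are positive, so the pattern shared by all 4 arrays went with the dye as labelled; whether the labelled dyes are right was not tested. The signs agreed within each orientation and opposed between orientations in 57 SLC probes (35.2%), against 41.6% of all tested probes.

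The 3 largest cases of this kind were an amino acid transporter homologue, a chloride transporter and a neutral amino acid transporter. SLC7A4, a member of the cationic amino acid transporter family, had log2 ratios of 1.18, 1.04, -1.58 and -1.52 on replicates 1 to 4. SLC12A5, a potassium-chloride cotransporter best known from neurons, had ratios of 1.12, 0.89, -0.93 and -1.23. SLC7A8, which exchanges neutral amino acids, had ratios of 0.98, 0.80, -0.94 and -1.19 by its brighter probe. All 3 were higher in whichever pool carried Cy3, and the fitted exposure ratios that remain after the dye term were -0.22, -0.04 and -0.09 for SLC7A4, SLC12A5 and SLC7A8. SLC7A8's dimmer probe, with ratios of -0.05, -0.14, 0.40 and -0.02, did not have this pattern.

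SLC6A8, the creatine transporter, is the solute carrier with the most tested probes, and all 4 had a fitted ratio above 0. Creatine uptake feeds the phosphocreatine store that buffers ATP. Its probe EMPV1_18899 read 13.20, 13.59, 13.44 and 13.57 in high NEFA pools, against 12.91, 13.02, 12.82 and 13.45 in control pools. The ratio was 0.29, 0.57, 0.62 and 0.11 on replicates 1 to 4, higher in high NEFA on every array, while the groups overlapped by way of control pool 4. The fitted log2 ratio was 0.40 ± 0.14 (SE, n = 4 arrays, as for every ± below) and its limma adjusted p 0.764. The brightest probe, EMPV1_05430, read 14.37, 13.68, 13.76 and 14.49 in high NEFA pools, against 13.87, 13.46, 13.33 and 14.49 in control pools. On this probe 3 arrays were higher in high NEFA, replicate 4 lay at -0.00, and the fit gave 0.29 ± 0.14 with a 95% interval of -0.01 to 0.59. EMPV1_24355 had a fitted ratio of 0.29 ± 0.18, with ratios from -0.46 on replicate 4 to 0.98 on replicate 2. The dimmest probe, EMPV1_21706, was above background in 3 high NEFA and 2 control pools and had 0.06 ± 0.14. With mean instead of median pixel intensities, the ratios of EMPV1_05430, EMPV1_18899, EMPV1_24355 and EMPV1_21706 were 0.29, 0.34, 0.29 and 0.34, with limma adjusted p from 0.511 to 0.589. The 4 probes measure 1 gene in the same pools and are not 4 independent results.

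Among the 26 tested amino acid transporter genes, 12 had a ratio above 0 and 14 below, and the class median was -0.02. Family SLC1, which holds the glutamate and neutral amino acid transporters, had 5 of 6 tested genes above 0, with a median of 0.15. Its brightest member SLC1A5, which carries glutamine and other neutral amino acids, read 11.20, 11.22, 10.26 and 11.11 in high NEFA pools, against 11.42, 10.88, 10.04 and 10.46 in control pools. High NEFA was higher on 3 of 4 arrays, the groups overlapped, and the fit gave 0.24 ± 0.15 with a limma adjusted p of 0.778. SLC1A3, a glutamate and aspartate transporter, read 8.91, 9.06, 8.55 and 9.06 in high NEFA pools, against 8.61, 8.58, 8.46 and 8.60 in control pools. It was higher in high NEFA on all 4 arrays, with only high NEFA pool 3 inside the control range, and its fitted ratio was 0.33 ± 0.13 (limma adjusted p 0.764), or 0.08 from mean pixel intensities. The glutamate transporters SLC1A1 and SLC1A2 had 0.09 ± 0.14 and 0.14 ± 0.14 from probes seen in 4 and 5 of 8 channels. The 4 of SLC1A1 were all Cy3. SLC1A6, the remaining gene above 0, had 0.15 ± 0.14 and is named after its values were seen. Mean pixel intensities gave -0.00 for SLC1A1, -0.01 for SLC1A6, 0.05 for SLC1A2 and 0.15 for SLC1A5.

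The other amino acid carriers lay on either side of 0. SLC7A7 had 0.02 ± 0.18 with a 95% interval of -0.39 to 0.43. SLC7A9, the light chain of the cystine and cationic amino acid exchanger, had -0.19 ± 0.20. SLC6A6, the taurine transporter, had -0.14 ± 0.12, negative on replicates 1 and 2 and positive on replicates 3 and 4, or 0.05 from mean pixel intensities. In family SLC38, which carries glutamine and other small neutral amino acids, SLC38A1 had 0.20 ± 0.14 and SLC38A5 0.12 ± 0.13. SLC38A6, a member whose substrates are less well known, had -0.33 ± 0.14 (limma adjusted p 0.764) from a probe above background in 2 high NEFA and 4 control pools. It is given because it is 1 of the 3 lower probes at an unadjusted p under 0.05, and was chosen after its value was seen. The proton-coupled amino acid transporter SLC36A1 had -0.09 ± 0.15.

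The families classed as sugar carriers, SLC2, SLC5 and SLC45, had 5 of 13 tested genes above 0 and a median of -0.04. SLC2A8 had -0.13 ± 0.14, with a 95% interval of -0.45 to 0.19, and was the brighter of the 2 members of family SLC2 that could be tested. SLC5A6 belongs to the sodium-glucose family by sequence but carries the vitamins biotin and pantothenate. It read 10.13, 9.66, 10.05 and 10.28 in high NEFA pools, against 9.70, 9.66, 9.49 and 10.17 in control pools, with a fitted ratio of 0.28 ± 0.14 (limma adjusted p 0.765). High NEFA was higher on all 4 arrays, by as little as 0.00 on replicate 2 after rounding, and the groups overlapped. SLC5A9, a sodium-coupled mannose and glucose transporter, had ratios of 0.07, 0.18, 0.15 and 0.18 and a fit of 0.14 ± 0.12. SLC45A2, a melanosome transporter, had -0.11 ± 0.14 and -0.17 ± 0.13 by its 2 probes.

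Nucleotide sugar and Golgi carriers, which bring activated sugars into the endoplasmic reticulum and Golgi for glycosylation, held the largest ratio of any tested solute carrier. SLC35B4, a Golgi carrier of UDP-xylose and UDP-N-acetylglucosamine, read 8.93, 8.44, 8.91 and 8.95 in high NEFA pools, against 8.93, 8.27, 7.95 and 8.18 in control pools. Its ratios were 0.00, 0.18, 0.96 and 0.76, so nearly all of the difference came from replicates 3 and 4, and control pool 1 lay within the high NEFA range. The fit gave 0.48 ± 0.13, a 1.39-fold difference, with a limma adjusted p of 0.764, and mean pixel intensities gave 0.27 ± 0.07. SLC35B1, which exchanges ATP for ADP across the endoplasmic reticulum membrane, had 0.22 ± 0.18, negative on replicates 1 and 3 and positive on replicates 2 and 4. SLC37A1, a phosphate-linked glucose 6-phosphate antiporter, had -0.13 ± 0.13. Of 17 tested genes of the class, 10 were above 0, with a median of 0.03.

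SLC35F3, a family member linked to thiamine transport, was above background in all 4 high NEFA pools and in 0 of 4 control pools. It read 7.90, 8.29, 8.09 and 8.25 in high NEFA pools, against 7.75, 7.81, 7.82 and 7.50 in control pools. The pools did not overlap, but the probe entered the test only through its high NEFA channels, so its direction and the gap between pools are given as a description. Non-overlap was seen in 2 of 162 SLC probes and in 0.905% of all tested probes. The fitted log2 ratio was 0.41 ± 0.14 (limma adjusted p 0.764), 0.30 without replicate 4 and 0.02 from mean pixel intensities, and no fold is given because SLC35F3 was not well above background in control pools.

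Mitochondrial carriers had 10 of 23 tested genes above 0 and 13 below, with a median of -0.09, and 0 of their 29 tested probes had an unadjusted p under 0.05, against 6.41% of all tested probes. SLC25A1, which exports citrate to the cytosol, where it is the carbon source of fatty acid synthesis, read 11.22, 11.56, 11.08 and 10.83 in high NEFA pools, against 10.82, 11.00, 12.12 and 11.80 in control pools. The ratios of 0.40, 0.56, -1.04 and -0.96 went with the dye, the groups overlapped, and the fit gave -0.26 ± 0.12 with a 95% interval of -0.54 to 0.02. Its other probes had -0.20 ± 0.17 and -0.01 ± 0.15.

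The ADP/ATP carriers and the phosphate carrier, which together serve ATP synthesis, had fitted ratios between -0.27 and 0.00. SLC25A4 read 10.63, 10.34, 11.36 and 11.68 in high NEFA pools, against 11.83, 11.32, 10.81 and 11.12 in control pools, for a fitted ratio of -0.27 ± 0.12, or -0.04 from mean pixel intensities. Here too the sign went with the dye, with ratios of -1.20, -0.98, 0.55 and 0.56. Its other probe had -0.09 ± 0.13, and SLC25A5 had -0.10 ± 0.18. These carriers are closely similar in sequence, and the probes were not checked for cross-hybridisation here. SLC25A3 had 0.00 ± 0.13 and -0.21 ± 0.15 by its 2 probes.

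The carriers of the malate-aspartate shuttle, which moves reducing equivalents into mitochondria, were each below 0 by less than 2 standard errors. The oxoglutarate carrier SLC25A11 had -0.09 ± 0.13, and the aspartate-glutamate carriers SLC25A12 and SLC25A13 had -0.16 ± 0.13 and -0.13 ± 0.17, or -0.03 and 0.02 from mean pixel intensities. SLC25A11 was positive on replicates 1 and 2 and negative on replicates 3 and 4, and SLC25A12 the reverse. The pyrimidine nucleotide carrier SLC25A33 had -0.16 ± 0.13. SLC25A34, whose substrate is not well established, was higher in high NEFA on all 4 arrays, by 0.04 to 0.16, with a fit of 0.09 ± 0.12.

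The acid-base and ion exchangers and cotransporters had 10 of 17 tested genes above 0 and a median of 0.03. The 10 include SLC9A3R1 and SLC4A1AP, which do not name a carrier. SLC9A3R1 had 0.10 ± 0.13 and 0.19 ± 0.16 by its 2 probes, and SLC9A3R2 was above background in no channel. The sodium-driven bicarbonate transporter SLC4A10 had -0.10 ± 0.16, and SLC26A5, the motor protein prestin of outer hair cells, had 0.06 ± 0.13. SLC24A5, a potassium-dependent sodium-calcium exchanger known for its part in pigmentation, was above background in 4 high NEFA pools and 1 control pool. Its ratios were -0.14, 0.15, 0.56 and 0.54, and the fit gave 0.28 ± 0.13 with a limma adjusted p of 0.764, or 0.06 from mean pixel intensities.

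Metal ion carriers had 7 of 12 tested genes above 0 and a median of 0.01. Among zinc exporters of family SLC30, SLC30A4 had ratios between -0.16 and -0.04 on the 4 arrays and a fit of -0.08 ± 0.12. SLC30A7, which loads zinc into the Golgi, had 0.02 ± 0.16, with replicate 1 at -0.72 and the others at 0.18, 0.28 and 0.35. SLC39A3, a zinc importer, had -0.12 ± 0.13, or 0.12 from mean pixel intensities.

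Carriers of monocarboxylates, dicarboxylates and peptides had 4 of 10 tested genes above 0 and a median of -0.02. SLC16A12, a monocarboxylate family member that carries creatine, read 7.92, 7.99, 8.04 and 7.84 in high NEFA pools, against 7.50, 7.83, 7.63 and 7.66 in control pools. The pools did not overlap, and the fit gave 0.29 ± 0.13 (limma adjusted p 0.764). Yet the probe was above background in only 3 high NEFA pools and 1 control pool, and mean pixel intensities gave -0.01. SLC15A1, the peptide transporter PEPT1, had ratios of -0.24, -0.23, -0.05 and -0.06 and a fit of -0.14 ± 0.12, while mean pixel intensities gave 0.09. The citrate importer SLC13A5 had 0.12 ± 0.13 and the brighter probe of the monocarboxylate transporter SLC16A11 0.01 ± 0.13.

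Organic ion, bile acid and vitamin carriers had 3 of 9 tested genes above 0 and a median of -0.09. SLC10A1, the sodium-driven bile acid transporter of liver, read 7.73, 7.95, 7.59 and 7.42 in high NEFA pools, against 7.67, 8.36, 8.31 and 8.19 in control pools. It was above background in 1 high NEFA and 3 control pools, the groups overlapped by way of control pool 1, and the fit gave -0.46 ± 0.13 (limma adjusted p 0.764), or -0.12 from mean pixel intensities. SLC22A18, an organic cation carrier, had -0.11 ± 0.21 and the lysosomal SLC46A3 -0.05 ± 0.15 and 0.05 ± 0.13 by its 2 probes.

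Choline transporter-like proteins of family SLC44 had 0 of 4 tested genes above 0, with a median of -0.17. The highest of the 4 lay at -0.00, and 1 of the family's 6 probes was above background in all 8 channels. Choline is the head group of phosphatidylcholine. SLC44A2 read 9.58, 9.53, 9.81 and 9.67 in high NEFA pools, against 9.53, 9.82, 10.15 and 10.35 in control pools. It was lower in high NEFA on 3 of 4 arrays, with replicate 1 at 0.05, and the groups overlapped. The fit gave -0.32 ± 0.13 (limma adjusted p 0.764), or -0.11 from mean pixel intensities. Its other probe was above background in no channel. Among vesicular and lysosomal carriers, with 3 of 6 genes above 0, SLC17A2, an organic anion and phosphate transporter, had ratios of -0.08, -0.03, -0.12 and -0.16. The phosphate importer SLC20A1, of the ion cotransporters, had -0.03 ± 0.13.

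Nucleoside carriers had 4 of 6 tested genes above 0 and the highest class median, 0.12. SLC28A1, which takes up pyrimidine nucleosides with sodium, read 8.35, 8.00, 8.67 and 8.41 in high NEFA pools, against 8.33, 7.72, 8.14 and 8.21 in control pools. High NEFA was higher on all 4 arrays, the groups overlapped, and the fit gave 0.26 ± 0.13 (limma adjusted p 0.764), or -0.01 from mean pixel intensities. SLC28A3 had 0.10 ± 0.12. The equilibrative transporter SLC29A1 had 0.23 ± 0.12 and 0.04 ± 0.13 by its 2 probes, or 0.05 and 0.12 from mean pixel intensities, and the lysosomal SLC29A3 had 0.15 ± 0.15.

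Having 1 sign on all 4 arrays was about as common among solute carriers as on the whole array. It was met by 13 of 162 SLC probes (8.02%), against 7.82% of all tested probes, of which 9 were higher in high NEFA (3.76% of all probes) and 4 lower (4.06%). By the brightest probe of each gene, the higher ones were SLC35B4, SLC35F3, SLC1A3, SLC16A12, SLC5A6, SLC28A1, SLC5A9 and SLC25A34, and the lower ones SLC15A1, SLC17A2 and SLC30A4. The other 2 probes were the second ones of SLC6A8, which was higher, and SLC45A2, which was lower. SLC5A6, SLC1A3 and SLC35B4 were above background in all 8 channels, whereas SLC35F3 and SLC16A12 were above background in 4, mostly or only high NEFA ones.

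**Figure D4:**
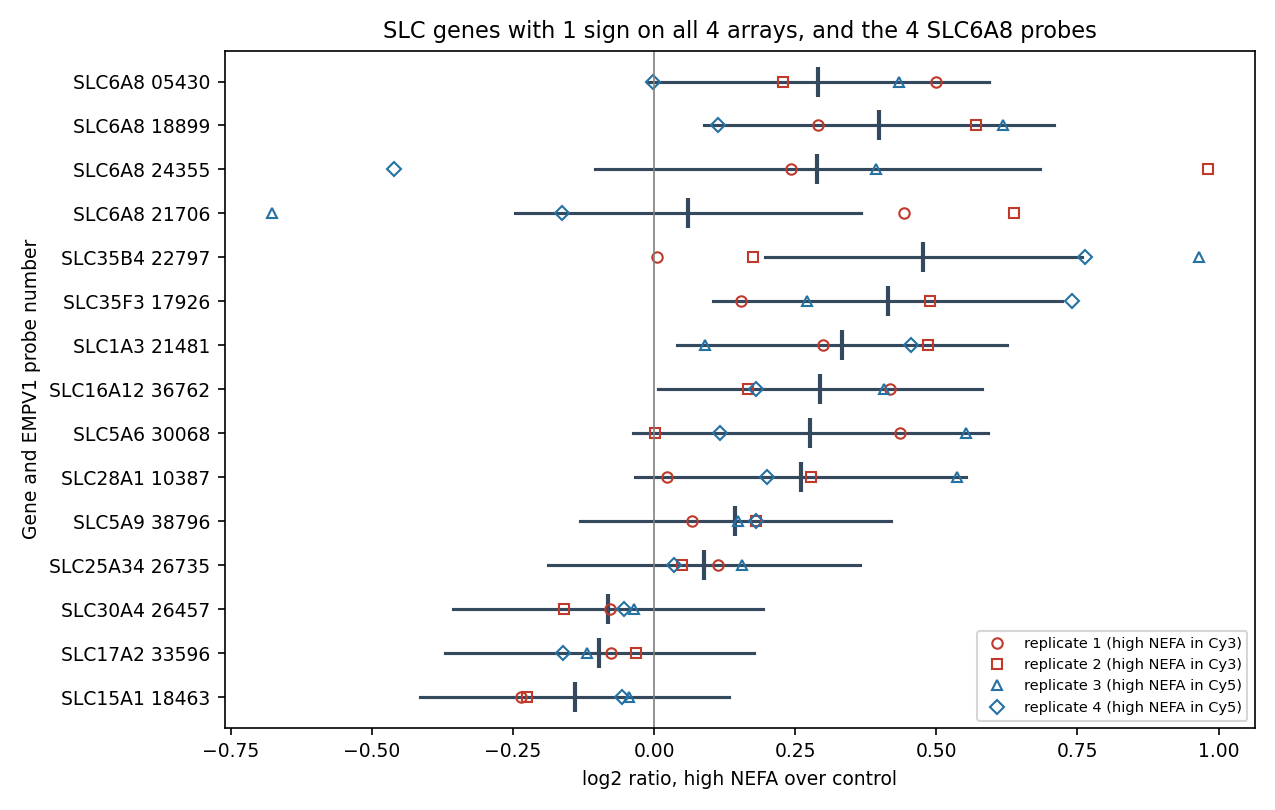
Log2 ratio of high NEFA over control (horizontal axis) on each of 4 arrays for the genes with 1 sign on all arrays and the 4 probes of SLC6A8; vertical bars are fitted ratios and lines their 95% intervals. SLC35B4 runs from 0.00 to 0.96, and the SLC6A8 probes have fitted ratios of 0.06 to 0.40.

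Probes of 1 gene did not always share the sign of their fitted ratio. Of 34 SLC genes with 2 or more probes, 15 had at least 2 tested probes, 9 of these had 1 sign in all tested probes, and 6 had probes of opposite sign. The gap between the highest and lowest probe of a gene had a median of 0.17 and reached 0.35 on the log2 scale, in SLC22A17, while the median size of a single ratio was 0.12. In SLC17A2, SLC44A2 and SLC7A14, 1 probe was above background in all 8 channels and another in 0; SLC7A14 and SLC22A17 are named here after their values were seen.

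Proteins that work with transporters gave much the same picture. Of 56 listed genes for the sodium pump, partner subunits, regulators, the proton pump, carbonic anhydrases and channels, 33 were on the array and 25 were tested. In the limma fit, 0 had an adjusted p under 0.05, 15 had a ratio above 0 and 10 below, and the median was 0.03. TXNIP, which restrains glucose uptake by promoting the internalisation of glucose transporters, had ratios of -0.38, -0.77, 0.14 and -0.52 and a fit of -0.38 ± 0.15 (limma adjusted p 0.764). By the brightest probe of each gene it was the 1 listed gene at an unadjusted p under 0.05. Of all 30 tested partner probes 2 met that p (6.41% of all tested probes did), the other being a dimmer probe of the proton pump subunit ATP6V0C. That probe had ratios of 0.22, 0.14, -1.03 and -1.13 and a fit of -0.45 ± 0.12 (limma adjusted p 0.764), or -0.01 from mean pixel intensities, while the brighter ATP6V0C probe had 0.16 ± 0.13; it is named after its values were seen. NEDD4L, a ubiquitin ligase that removes ion channels and transporters from the membrane, had 0.30 ± 0.14, or 0.03 from mean pixel intensities. Its probe was above background in 4 high NEFA and 2 control pools. The outer mitochondrial channels VDAC1 and VDAC2 had 0.19 ± 0.12 and 0.01 ± 0.15. The VDAC1 ratios of 1.01, 1.14, -0.65 and -0.75 went with the dye, and mean pixel intensities gave 0.06. The proton pump components ATP6AP2 and ATP6V0D1 had 0.13 ± 0.15 and -0.01 ± 0.13. The 3 tested subunits and modulators of the sodium pump, which drives sodium-coupled uptake and blastocoel formation, had ratios of 0.05 to 0.17 by their brightest probes.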

How the data were processed

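Per the file headers, the authors' scanner tables give pixel intensity, as median and mean, for every spot and its surrounding background in both dyes. They also flag spots to leave out with 0 or 1 (17 to 60 of 45220 spots per array, none of them an SLC probe), and nothing in them was normalised. The authors' series matrix holds log2 ratios per array, with direction not stated, and was used only as an alternative. The submitters' processing notes list limma. Symbols came from the platform table, joined by spot number, and all 216 were found in the RefSeq gene table.

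Median intensities were background-corrected with normexp (offset 50) and loess-normalised within arrays, with control and ignored spots at weight 0, in limma 3.58.1 with R 4.3.3 and statmod 1.5.0. Per probe, limma fitted exposure, signed by dye, and a dye intercept, with two-sided tests and Benjamini-Hochberg adjustment over all 24524 probes above background in at least 4 of 8 channels. This left 2 residual degrees of freedom, to which moderation added 7.87. The median SE was 0.13; the number of arrays limits the precision. The fit was tested on simulated data. A gene stands for its brightest tested probe.

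The members and lists were chosen with earlier results of these data known. Genes named are those with 1 sign on all 4 arrays (up to 8 per direction, by unadjusted p), the 15 brightest probes, listed embryo and metabolic transporters, the 3 largest dye opposites, the brightest member of each family with at least 3 probes, and for partners the 3 of smallest p and the 3 brightest. Alternatives covered background correction, pixel measure, normalisation, filter, dye term, the series matrix and leaving out each replicate. Sequences and genome positions were not used here.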

Additional observations from a re-analysis of the deposited data

Results flagged for a closer look

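SLC30A7, the Golgi zinc transporter, had 1 array far from the others: its log2 ratio of high NEFA over control was -0.7198 on replicate 1, against 0.18, 0.28 and 0.35 on replicates 2 to 4. The gap to the nearest value was 0.841 of the whole range, above the Dixon limit for 4 values. Of 52 named genes 1 met this limit, and of 162 tested SLC probes 4 (2.47%). The share over all tested probes is not given here, so this count is not read as particular to solute carriers. For 4 values that vary alike and independently, chance alone gives about 1 in 20. The arrays here split by dye orientation, so that rate need not hold for them.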

How the results depend on the processing

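No SLC probe passed an adjusted p of 0.05 in limma under any setting tried, where 0 to 79 of all probes did (79, 76, 36 and 22 without replicates 1 to 4, at most 7 otherwise), and the median ratio of SLC genes stayed between -0.03 and 0.01. The number of SLC probes at an unadjusted p under 0.05, 8 as reported, was 13 without background correction (8.02%, against 6.14% of all probes), 13 with 1 background per array and channel (8.02%, 6.7%), 16 with mean pixel intensity (9.88%, 9.31%), 20 of 260 without a filter (7.69%, 7.22%), 4 of 76 with probes above background in all 8 channels (5.26%, 5.47%) and 3 without the dye intercept (1.85%, 0.824%). Leaving out single replicates gave 7 to 19, with 19 without replicate 1 (11.7%, 9.25%) and 15 without replicate 2 (9.26%, 9.73%); each such fit leaves 1 array alone in its dye orientation, assumed to vary like the others. SLC probes above background in at least 4 channels, 162 as reported, were 106 at a margin of 3 SD, 209 at 1 SD, 202 with mean pixel intensity and 164 to 169 with a replicate left out. With mean pixel intensity the log2 ratio reversed to -0.0144 in SLC16A12, -0.0090 in SLC28A1, -0.0249 in SLC5A9, -0.0165 in SLC25A34 and 0.0906 in SLC15A1, and among other named genes it moved across 0 to 0.1226 in SLC39A3 and 0.0503 in SLC6A6; the cause was not tested. Of 52 named genes, 23 kept their sign under every alternative and 29 changed it under at least 1, 18 of them with mean pixel intensity. Among those that kept it, SLC35B4 ranged from 0.27 to 0.53 and SLC6A8, by its brightest probe, from 0.18 to 0.40. Each array sets 1 high NEFA pool against 1 control pool, and the fit used their ratio, so this pairing was kept throughout. Signal limits many values: 86 of the 162 tested probes were above background in fewer than 8 channels, with a median residual SD of 0.27, against 0.20 in the other 76.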

Other observations

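The choice of pixel measure bore on the size of the transporter ratios. The median absolute log2 ratio of high NEFA over control was 0.12 from median and 0.05 from mean pixel intensities over the 76 SLC probes above background in all 8 channels. Over the 86 tested SLC probes above background in fewer channels it was 0.12 and 0.04. The sign differed between the measures in 22 of the 76 and in 34 of the 86 probes. The same values over all tested probes are not given here, so none of this is read as particular to solute carriers. The 4 probes of SLC6A8, the creatine transporter, kept their sign with mean pixels, at 0.29 to 0.34. The dimmest, EMPV1_21706, seen in 5 of 8 channels, moved from 0.06 with median to 0.34 with mean pixels. These probes measure 1 gene in the same pools.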
